A study of Homo sapiens with 6 samples.

Results

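The 5S rRNA entries of a small RNA count table from K562 cells were examined as single entries, as named pseudogenes against named genes, and as a summed family. Members were selected on their names, which start with RNA5S or equal 5S_rRNA, and on their measured counts, which had to sum to at least 10 over the 6 samples. Of the 28846 small RNAs listed, 515 carry a 5S name, and 72 of these were members. The members were 70 named pseudogenes (RNA5SP and a number), 1 named gene (RNA5S9) and 1 entry named only 5S_rRNA. A further 133 entries had 1 to 9 counts and 310 had none. RNA5SP77, with 10 counts in all, lay just inside the limit, and RNA5SP134 and RNA5SP235, with 9 counts each, lay just outside it.

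K562 is an erythroleukemia cell line that can mature towards erythroid or megakaryocytic cells. All samples carried the lentiviral vector SIEW, which expressed GFP only in the 3 control samples and human RUNX1 together with GFP in the 3 RUNX1 samples. Each sample came from its own transduction of the same cell line, and RNA was harvested after 10 days in culture. RUNX1 mRNA is not measured in a small RNA library, so the expression of the vector could not be checked here.

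5S rRNA is the smallest RNA of the large ribosomal subunit. RNA polymerase III transcribes it from tandem gene copies through a promoter that lies inside the gene, and the RNA joins the ribosomal proteins L5 and L11 before it enters the ribosome. Most other 5S-named loci are dispersed copies, which are annotated as pseudogenes. In a small RNA library the entry is counted through short reads, and the deposited counts do not show which part of an entry the reads came from.

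Sequences are shown for 4 of the 5 pseudogenes with the highest mean level and for the 1 pseudogene called higher, so that their 3′ ends can be compared. They were read 5′ to 3′ from the GENCODE 29 annotation on GRCh38, and capitals mark the last 20 bases of each entry.
RNA5SP74: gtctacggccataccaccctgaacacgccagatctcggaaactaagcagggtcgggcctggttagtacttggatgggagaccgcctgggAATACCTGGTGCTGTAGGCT
RNA5SP303: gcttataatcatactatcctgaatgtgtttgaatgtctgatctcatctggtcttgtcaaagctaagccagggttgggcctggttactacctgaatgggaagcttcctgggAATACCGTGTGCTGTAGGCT
RNA5SP336: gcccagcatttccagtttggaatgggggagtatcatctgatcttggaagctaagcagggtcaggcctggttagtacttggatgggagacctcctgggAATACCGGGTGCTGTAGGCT
RNA5SP248: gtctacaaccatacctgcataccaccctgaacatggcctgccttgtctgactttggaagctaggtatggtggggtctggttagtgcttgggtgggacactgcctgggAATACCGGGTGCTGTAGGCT
RNA5SP289: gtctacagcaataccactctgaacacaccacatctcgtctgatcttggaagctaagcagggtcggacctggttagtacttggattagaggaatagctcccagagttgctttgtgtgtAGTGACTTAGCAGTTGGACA

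The 17 named genes lie on the minus strand of chromosome 1, chr1:228610268-228646158, in a tandem array. Of these, 16 have the identical sequence of 119 bases, and RNA5S9 (chr1:228628148-228628266) differs from them by a single base. Of the 100 overlapping stretches of 20 bases in RNA5S9, 80 also occur in RNA5S1. Each of the 100 stretches of RNA5S1 occurs in at least 1 5S-named pseudogene as well. RNA5SP202 (chr6:4427963-4428081) also differs from RNA5S1 by a single base. Reads of gene origin and of pseudogene origin can therefore be the same letters, and how the counting divided such reads is not given in the sources used here, so the count of any single entry is uncertain.

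The 71 members that matched the annotation by symbol were 78 to 137 bases long, with a median of 118. Their identity to RNA5S1 ran from 53.8% to 99.2%, with a median of 79.8%, and 23 of them held none of its 20-base stretches. They lie on 23 chromosomes. By position, 42 lie within introns of other annotated genes, 4 touch an exon, and 25 overlap no other gene. Of those touching an exon, RNA5SP392 overlaps CCDC9B, while RNA5SP463, RNA5SP150 and RNA5SP250 overlap another entry annotated as an rRNA pseudogene on the same strand. RNA5SP463, RNA5SP150 and RNA5SP250 are typed as rRNA in the annotation and are counted as pseudogenes here by name. The most abundant member, RNA5SP74 (chr1:204562413-204562521, minus strand), overlaps no gene, carries 3 substitutions and lacks 10 of the bases of RNA5S1. RNA5SP132 (chr3:51694465-51694582) lies in an intron of TEX264, RNA5SP303 (chr10:19633683-19633812) in an intron of MALRD1, and RNA5SP336 (chr11:21000881-21000997) in an intron of NELL1, each on the strand opposite to the host gene. RNA5SP248 (chr7:140386781-140386907) lies in an intron of SLC37A3 and RNA5SP289 (chr9:95905005-95905141) in an intron of ERCC6L2, both on the strand of the host.

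Total counts ran from 1618248 to 6193319 in control and from 7918551 to 15245007 in RUNX1 samples, so that 3 counts, taken as the floor for counting error, stand for 0.000185% of the counts in the smallest library, or 1.97e-05% in the largest. Levels are given as CPM, counts relative to a library size scaled by TMM, which assumes that most small RNAs keep their level. The TMM factors were 1.23 to 1.31 in control and 0.735 to 0.866 in RUNX1 samples, so the size of a change depends on this scaling, and the shares and ratios given here within a library do not. Of the 947 small RNAs tested, 57.6% were called, so the calls themselves do not meet that assumption. The files carry marker microRNAs of other cell types. The summed CPM of the 4 erythroid markers, which K562 cells should hold, was 4429 to 5064 in control and 2333 to 3697 in RUNX1 samples, with 3 of 4 called lower and 1 higher. The 6 muscle and mesenchymal markers summed to 71.0 to 75.3 CPM and to 1958 to 2162 CPM, with 3 of the 3 tested called higher. In RUNX1 samples most of this sum was miR-143-3p, with 23516, 12816 and 12786 counts. The log2 fold changes were 6.74 for miR-143-3p, 0.81 for miR-145-5p and 6.26 for miR-1, which had 70, 29 and 42 counts with RUNX1. The 7 epithelial markers summed to 55.8 to 63.7 and 166 to 181 CPM, with 3 of 4 tested called higher. miR-223-3p, the granulocytic and monocytic marker, lay at 1255 to 1384 and 1575 to 3047 CPM and was called higher, and the lymphoid marker miR-150-5p lay at 0 to 0.527 and 0.730 to 2.69 CPM, too low to test. None of these markers was at 0 in every sample. The level of each list differed between the conditions without overlap, as that of the 5S family did. Single markers did not all do so, and miR-200b-3p, with a log2 fold change of -0.41, was not called. The part of the markers in the 5S results was not tested.

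As a family, the 5S entries were far less abundant in the RUNX1 samples. Control replicates 1, 2 and 3 had 1.16%, 1.06% and 1.09% of all counts on 5S entries, against 0.0474%, 0.0511% and 0.105% for RUNX1 replicates 1, 2 and 3. The groups did not overlap, and RUNX1 replicate 3 was the highest of its group. The mean share was 1.11% ± 0.0468 in control against 0.0680% ± 0.0324 with RUNX1 (SD, n = 3 each), 16.3-fold lower. These shares are a description, since 3 samples against 3 are few and the family was chosen with its change known. Other parts of the library shifted too. The other rRNA entries took 4.68%, 5.29% and 5.19% of all counts in control against 1.62%, 2.17% and 2.78% with RUNX1. Entries named as microRNAs took 82.1%, 81.4% and 82.1% in control against 91.9%, 91.3% and 89.5% with RUNX1. The 5S shares count short reads assigned to these entries, and 16 of the 17 named genes had 0 counts. They therefore do not give the amount of whole 5S RNA. In bulk RNA, fewer cells of a kind and fewer such reads per cell cannot be told apart.

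On the TMM scale the summed level was 8952, 8132 and 8926 CPM in control against 627, 696 and 1218 CPM with RUNX1, 10.2-fold lower in the means. Entered as 1 feature beside all other small RNAs, the family had a log2 fold change of -3.42 (SE 0.258). With no scaling beyond the library size the value was -4.02 (SE 0.316). Without RNA5SP74 the summed level was 2305, 1833 and 2296 CPM against 271, 340 and 671 CPM, 5.02-fold lower, with a log2 fold change of -2.38 (SE 0.316). The sum of the remaining entries therefore lay lower in every RUNX1 sample too, by a smaller factor, though not each single entry did. With both RNA5SP74 and RUNX1 replicate 3 left out, an alternative chosen after seeing the data, the value was -2.82 (SE 0.124).

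RNA5SP74 alone made up 74.3%, 77.5% and 74.3% of the 5S counts in control against 56.7%, 51.1% and 44.9% with RUNX1. The share of RNA5SP248 was 2.61%, 3.18% and 3.21% in control against 16.7%, 18.5% and 23.2% with RUNX1. The composition of the 5S counts thus differed between the conditions, with no overlap for either entry. RNA5SP132, the second most abundant, took 8.75% ± 1.44 in control against 8.64% ± 2.38 with RUNX1 (SD, n = 3 each), and its samples overlapped.

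**Figure D1:**
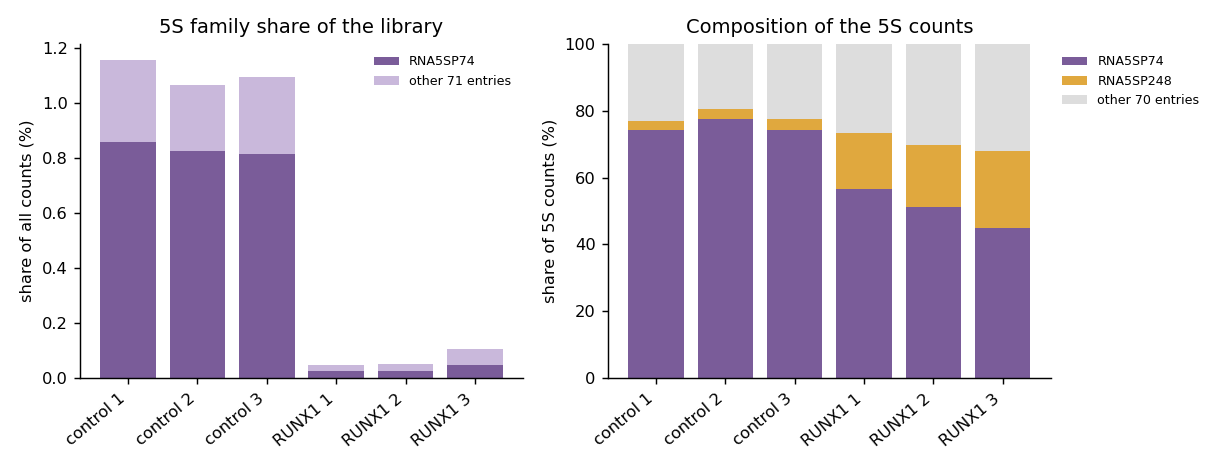
The left panel plots, for each of the 6 samples, the percent of all counts taken by the 72 members, split into RNA5SP74 and the other 71, and the right panel the percent of the 5S counts taken by RNA5SP74, by RNA5SP248 and by the other 70. Control bars on the left stand between 1.06% and 1.16% and RUNX1 bars at 0.105% or less, while on the right RNA5SP248 grows from at most 3.21% to at least 16.7%.

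Of the 72 members, 43 had enough counts to be tested, and edgeR's quasi-likelihood test over all 947 entries called 34 of them lower and 1 higher in RUNX1 samples, where called means an unadjusted p under 0.05 with a log2 fold change of 0.5 or more in either direction. The remaining 8 were not called. Over all tested entries 29.6% were called lower and 28% higher. With Benjamini-Hochberg adjustment the counts for the 5S entries stayed at 34 and 1, while 27.9% of all tested entries were called lower and 26.7% higher. In 33 members all RUNX1 samples lay below all control samples and in 1 all lay above, where 33.5% and 31.4% of all tested entries did so. RNA5SP382 was called lower, with 3.35, 2.61 and 4.48 CPM in control against 0.520, 0.640 and 2.77 CPM with RUNX1, although its samples overlapped, and it was named after its values were seen. The median log2 fold change was -2.50 over the tested members and -0.06 over all tested entries, and the members ranged from -4.08 to 1.13.

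The filter on low counts bears on these counts. Of the 43 members, 26 passed it through the control samples only, 17 passed it in both groups, and 0 through the RUNX1 samples only, so a lower RUNX1 level was built into the choice of these 26, and their calls are no support. Among the 17 that passed in both groups, 11 were called lower, 1 higher and 5 not, with a median log2 fold change of -1.47, while 25.2% of the 730 entries of that kind were called lower and 31.6% higher. The 29 members that were not tested had 25 values below zero and 4 above when the filter was dropped. Of these, 12 were called lower and 1 higher in that fit, in which 12.3% of all 3084 entries were called lower and 12.4% higher. The 3084 entries include any with at least 1 count, whereas each member had at least 10. These shares are therefore not alike in count level, and no excess is read from them.

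**Figure D2:**
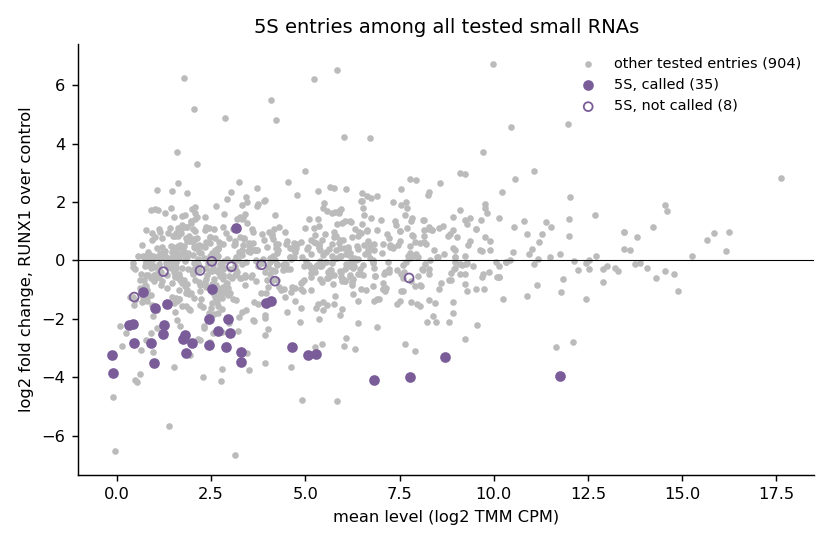
Each point is 1 of the 947 tested small RNAs, with its mean level (log2 TMM CPM) on the horizontal axis and its log2 fold change, RUNX1 over control, on the vertical axis, and the 43 tested 5S members in purple, filled where called. The 5S points lie below zero along the range of levels down to -4.08, apart from RNA5SP289 at 1.13.

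RNA5SP74 was the member with the highest level per length, at 59867 CPM per kb in control and 3846 in RUNX1 samples, against 6466 and 654 for RNA5SP132. Its counts were 13900, 50758 and 50347 in control against 4097, 2223 and 3744 with RUNX1, or 6647, 6299 and 6630 CPM against 355, 356 and 546 CPM. The control samples lay close together and all RUNX1 samples were far below them. The log2 fold change was -3.96 (SE 0.199, Benjamini-Hochberg adjusted p 9.415e-07 in edgeR's quasi-likelihood test).

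RNA5SP132 had 825, 580 and 883 CPM in control against 37.6, 64.8 and 129 CPM with RUNX1. The RUNX1 samples differed more than 3-fold among themselves, with replicate 3 the highest, and stayed below all controls. The log2 fold change was -3.31 (SE 0.412, Benjamini-Hochberg adjusted p 0.000136 in edgeR's quasi-likelihood test).

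RNA5SP303 had 413, 399 and 438 CPM in control against 22.6, 18.1 and 38.4 CPM with RUNX1, with a log2 fold change of -3.98 (SE 0.268). RNA5SP336 had 341, 143 and 178 CPM in control against 8.24, 16.6 and 14.6 CPM with RUNX1. Control replicate 1 stood above the other controls of RNA5SP336, and all RUNX1 samples lay below all controls for both entries. With a log2 fold change of -4.08 (SE 0.388), RNA5SP336 fell the most of all tested members, by a margin over RNA5SP303 and RNA5SP74 that is smaller than its SE. The Benjamini-Hochberg adjusted p values of edgeR's quasi-likelihood test were 3.47e-06 for RNA5SP303 and 2.83e-05 for RNA5SP336.

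RNA5SP248 departed from the other abundant pseudogenes. It had 233, 258 and 287 CPM in control against 105, 129 and 282 CPM with RUNX1. RUNX1 replicate 3 lay among the controls and the other RUNX1 samples lay below them. The log2 fold change was -0.60 (SE 0.325), and the Benjamini-Hochberg adjusted p of edgeR's quasi-likelihood test was 0.143, so RNA5SP248 was not called. Without RUNX1 replicate 3 it was called, with a log2 fold change of -1.08 (SE 0.117). It was also called with library size only (-1.25), with TMM on microRNAs only (-0.78) and without the filter (-0.53), so whether it is called depends on the processing.

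Among the entries with few counts, RNA5SP518 and RNA5SP491 completed the 5 largest falls, with log2 fold changes of -3.87 (SE 0.686) and -3.51 (SE 0.479). RNA5SP491 had 7, 28 and 27 counts in control against 1, 4 and 2 with RUNX1. Their Benjamini-Hochberg adjusted p values in edgeR's quasi-likelihood test were 0.00111 and 0.000235. Both passed the filter through control only, which favours a fall. Their size rests on single libraries, since RNA5SP518 was at -6.13 without RUNX1 replicate 1, and RNA5SP491 at -2.85 without RUNX1 replicate 1 and at -4.20 without RUNX1 replicate 2. RNA5SP111, RNA5SP460 and RNA5SP298 had counts in control only, 16, 13 and 11 in all. They became members through control counts alone, so a lower RUNX1 level was built into their choice. Against a floor of 3 counts over the RUNX1 group their pooled control levels put them at least 7.40-fold, 6.02-fold and 5.09-fold lower. These factors allow no error for the control counts, and the samples of RNA5SP111 overlapped between the groups. All 3 were too low to be tested.

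RNA5SP289 was the 1 tested member that rose. Its counts were 9, 44 and 43 in control against 141, 66 and 82 with RUNX1, or 4.30, 5.46 and 5.66 CPM against 12.2, 10.6 and 12.0 CPM. Each RUNX1 sample lay above each control. The log2 fold change was 1.13 (SE 0.201, Benjamini-Hochberg adjusted p 0.001125 in edgeR's quasi-likelihood test). With library size only it was 0.43 (SE 0.212) and was not called, so this rise depends on the scaling. Outside the tested entries, RNA5SP442 (chr17:41718154-41718260, in an intron of HAP1) had 1, 1 and 5 counts in control against 20, 9 and 15 with RUNX1, and it was named after its values were seen. Its log2 fold change without the filter was 2.18 (SE 0.611).

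**Figure D3:**
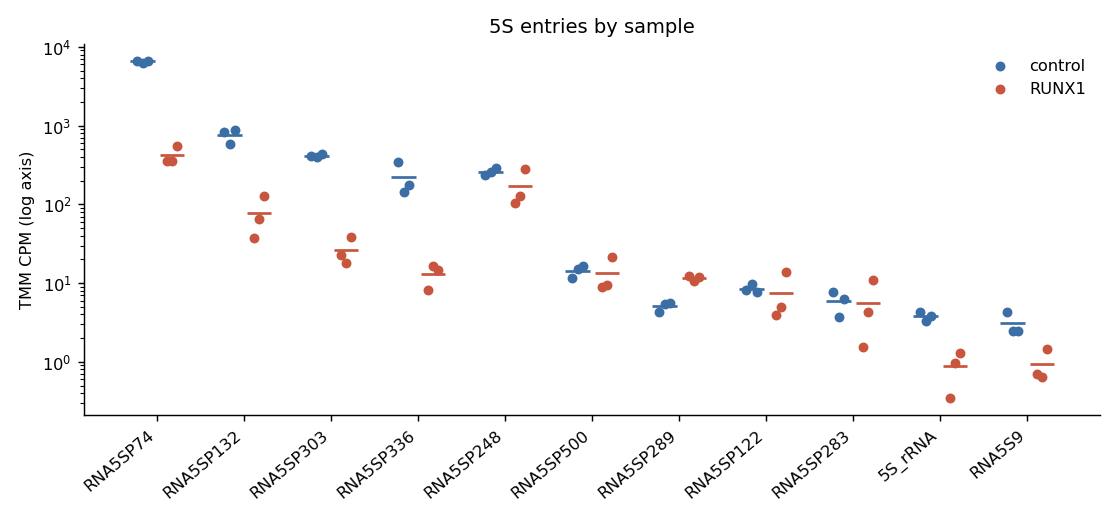
TMM CPM on a log axis for 11 of the 72 entries, with a point for each of the 3 control and 3 RUNX1 samples and a line at the group mean. RNA5SP74 lies at 6299 CPM or more in control and at 546 CPM or less with RUNX1, RNA5SP289 lies higher in all RUNX1 samples, and for RNA5SP248, RNA5SP500, RNA5SP122 and RNA5SP283 RUNX1 replicate 3 lies at or above the controls or among them.

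The 5 tested members with the smallest change were RNA5SP283 (log2 fold change -0.03, SE 0.616), RNA5SP500 (-0.15, SE 0.340), RNA5SP122 (-0.21, SE 0.444), RNA5SP19 (-0.34, SE 0.296) and RNA5SP304 (-0.38, SE 0.310). None was called. With library size only, RNA5SP19 (-1.03) and RNA5SP304 (-1.09) were called lower. RNA5SP283 had 7.65, 3.72 and 6.32 CPM in control against 1.56, 4.32 and 11.1 CPM with RUNX1, so that its RUNX1 samples spanned both sides of the controls. RNA5SP500 had 11.5, 15.1 and 16.6 CPM in control against 9.02, 9.60 and 21.7 CPM with RUNX1. RNA5SP122 had 8.13, 9.80 and 7.64 CPM in control against 3.90, 4.96 and 13.9 CPM with RUNX1. In all 3 the highest sample was RUNX1 replicate 3, and without it they were called lower, with log2 fold changes of -0.95, -0.61 and -0.91. RNA5SP19 had 2.39, 5.58 and 5.40 CPM against 3.56, 3.36 and 4.67 CPM, and RNA5SP304 had 2.87, 2.85 and 1.71 CPM against 1.82, 1.92 and 1.75 CPM, with overlapping samples in both.

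**Figure D4:**
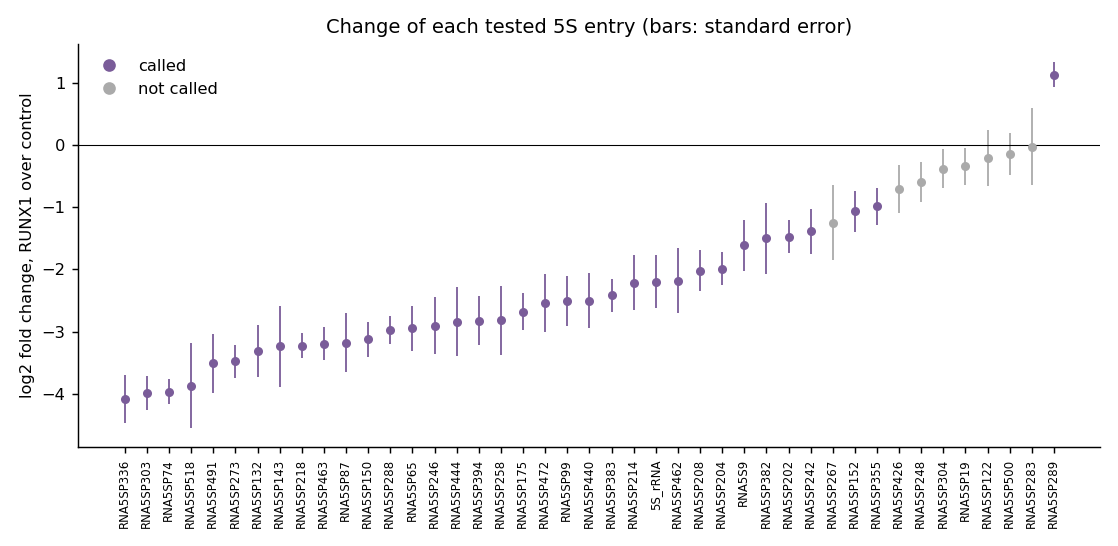
The log2 fold change of each of the 43 tested 5S entries, RUNX1 over control, ordered by size, with bars for the standard error and purple points for called entries. The values run from -4.08 for RNA5SP336 to 1.13 for RNA5SP289, and 8 grey points mark the entries that were not called.

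The entries of the named genes held very few counts. Of the 17 named genes, 16 had 0 counts in all 6 samples. These 16 share 1 sequence, so a read from any of them matches all. How such reads were counted is not given in the sources used here, so the 0 counts set no limit on their level. Per length, RNA5S9 lay at 26.0 CPM per kb in control and 7.82 in RUNX1 samples, far under RNA5SP74. RNA5S9 had 9, 20 and 19 counts in control against 8, 4 and 10 with RUNX1, or 4.30, 2.48 and 2.50 CPM against 0.694, 0.640 and 1.46 CPM. Its CPM values did not overlap between the groups, and the log2 fold change was -1.61 (SE 0.405, Benjamini-Hochberg adjusted p 0.0074 in edgeR's quasi-likelihood test). The entry 5S_rRNA, which has no match in the annotation by symbol, had 9, 27 and 29 counts in control against 4, 6 and 9 with RUNX1. Both RNA5S9 and 5S_rRNA passed the filter through control only, so a lower RUNX1 level was part of how they came to be tested. In CPM the values of 5S_rRNA were 4.30, 3.35 and 3.82 against 0.347, 0.960 and 1.31, without overlap. The log2 fold change was -2.20 (SE 0.421, Benjamini-Hochberg adjusted p 0.0017 in edgeR's quasi-likelihood test). RNA5S9 and 5S_rRNA summed as 1 feature gave -1.99 (SE 0.360).

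Set against the named gene within each library, the pseudogenes were lower in RUNX1 samples. The log2 ratio of pseudogene to gene counts was 11.0, 11.7 and 11.8 in control against 9.82, 10.1 and 9.70 with RUNX1, a difference of -1.63 in the means with no overlap. It rests on RNA5SP74 to a large part. With RNA5SP74 left out the ratios were 9.06, 9.52 and 9.84 against 8.61, 9.05 and 8.84, a difference of -0.64, and the highest RUNX1 and the lowest control value then lay next to each other. The gene side of these ratios is 4 to 20 counts per sample, which limits their precision.

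RNA5SP202, the pseudogene with the sequence nearest to RNA5S1, had 24.4, 21.2 and 23.8 CPM in control against 5.47, 8.0 and 11.8 CPM with RUNX1, and it was picked for its sequence. Its log2 fold change was -1.47 (SE 0.268, Benjamini-Hochberg adjusted p 0.00126 in edgeR's quasi-likelihood test). The values of RNA5S9 and RNA5SP202 lay within 1 SE of each other, both nearer to zero than the median over the tested pseudogenes, -2.51. That median includes entries that passed the filter through control only, as RNA5S9 did. Over the members past the filter in both groups the median was -1.47, the value of RNA5SP202 itself. Whether RNA5S9 and RNA5SP202 differ from the other pseudogenes was not tested.

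The entries also divide by how well they keep the last 20 bases of RNA5S1, counted as the fewest mismatches at any place in the entry, without gaps. RNA5SP336 and RNA5SP248 carry these bases with 0 mismatches and RNA5SP74 and RNA5SP303 with 1, each at their own 3′ end, in capitals in the sequences shown, whereas the best place anywhere in RNA5SP289 has 10 mismatches. Over the 42 tested members with a sequence, the number of mismatches to these 20 bases went with a lower mean level (Pearson's r = -0.50 and Spearman's rho = -0.586 across entries, a description without a test, since entries share libraries and reads and were kept for their counts). At the 5′ end the values were 0.017 and -0.04. With the log2 fold change, the correlation of the 3′ mismatches was 0.321 and 0.269, a weak relation.

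By mismatches to the gene's 3′ end, a division chosen after the values were seen, 8 tested entries had 0, of which 5 were called lower and 3 not, with a median log2 fold change of -1.54. The 12 entries with 1 mismatch were called lower, with a median of -3.04, and the 4 with 2 mismatches had 3 called lower. The 18 with 3 or more had 13 called lower, 1 higher and 4 not, with a median of -2.10. Among all 947 tested entries 29.6% were called lower and 28% higher. The filter enters these counts unevenly, since 1 of the 8 entries with 0 mismatches, 7 of the 12 with 1, 2 of the 4 with 2 and 15 of the 18 with 3 or more passed it through control only. Among those past it in both groups, 4 of 7 entries with 0 mismatches, 5 of 5 with 1, 1 of 2 with 2 and 1 of 3 with 3 or more were called lower, too few to set the classes apart. Of all 730 entries past it in both groups 25.2% were called lower and 31.6% higher. Entries that keep the gene's 3′ end exactly thus included the largest fall, RNA5SP336 at -4.08, as well as RNA5SP248 and RNA5SP500, which were not called.

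**Figure D5:**
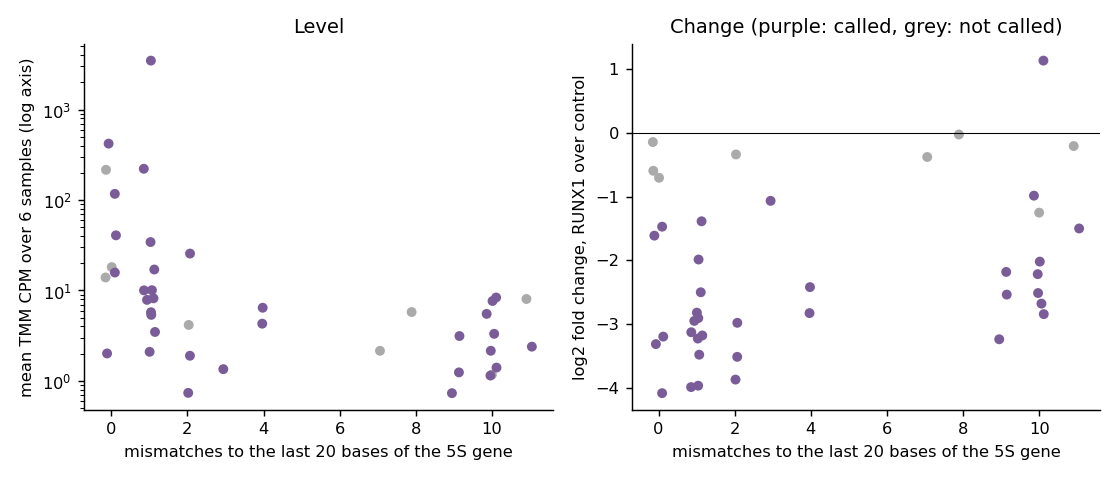
The 42 tested entries with a sequence, by their mismatches to the last 20 bases of RNA5S1 on the horizontal axis, against the mean TMM CPM over 6 samples on a log axis (left) and the log2 fold change, RUNX1 over control (right), with grey points for entries that were not called. Levels above 100 CPM occur only at 0 or 1 mismatch in this plot, and the fold changes spread widely at 0 mismatches and at 10.

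Of 8 other rRNA entries listed, 7 were tested, 5 were called lower and none higher, with a median log2 fold change of -1.03. Among all 947 tested entries 29.6% were called lower and 28% higher. The 5 called carry names of pseudogenes of 5.8S rRNA, which RNA polymerase I makes together with 18S and 28S rRNA, and ran from RNA5-8SP3 at a log2 fold change of -2.85 to RNA5-8SP2 at -0.61. The mitochondrial MT-RNR1 (0.30, SE 0.192) and MT-RNR2 (-0.18, SE 0.166) were not called. Within the rRNA-named counts, 5S took 19.8%, 16.7% and 17.4% in control against 2.83%, 2.30% and 3.65% with RUNX1, so the 5S share was lower also against the other rRNA. Of 1365 listed entries for other RNA polymerase III transcripts only 3 could be tested, all U6 snRNA pseudogenes that passed the filter through control only, with log2 fold changes of -2.79 for RNU6-23P, -4.00 for RNU6-222P and -6.52 for RNU6-1128P.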

How the data were processed

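From 1000 ng of total RNA the authors prepared TruSeq Small RNA libraries, used CASAVA 1.8.2 and the OASIS platform, and deposited whole-number counts per small RNA without normalization. The aligner, and how reads with several matching loci were treated, are not given in the sources used here. The 5 summary rows at the foot of each file hold 0 counts and were left out. The members and lists were chosen with earlier results of these data known.

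Counts of all entries were fitted in R 4.3.3 with edgeR 4.0.16 (filterByExpr with minimum count 10 and total 15, TMM, glmQLFit and glmQLFTest, condition as the only term), and p-values were adjusted by Benjamini-Hochberg over the 947 tested entries. Each SE was taken as the size of the log2 fold change over the square root of F. The biological coefficient of variation was 0.181. Named entries are the tested gene and 5S_rRNA, the 5 pseudogenes with the highest mean CPM, the 5 largest falls and up to 5 rises called with separated samples, the 5 smallest changes, the entries at the membership limit, and those with counts in 1 group. Others are marked where named.

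Sequences and coordinates come from GENCODE 29 on GRCh38, read by gene symbol, which matched 71 of 72 members. The submitters' processing notes name hg19, and no coordinates were converted. Some sequences are not reported here. Alignments to RNA5S1 used Biopython 1.88. Library totals set the precision, and floors cover counting error only. Within a condition, replicates were further apart than counting error (chi-square per degree of freedom 2.40 to 7.01 over the members) and each counted as 1 sample. The library names carry a different letter for each condition. Should the letters mark preparations, these cannot be told apart from the conditions. RUNX1 replicate 1 has the same number as replicate 2 in its library name, and the sample titles were used. Alternatives were RLE factors, library size only, TMM on microRNAs or without rRNA, no filter, at least 10 counts in every sample, DESeq2 1.42.0, the replicate block, other sums and totals, and each replicate left out.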

Additional observations from a re-analysis of the deposited data

How the results depend on the processing

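The deposited counts were divided among near-identical copies by a rule not given in the sources used here. The floor of 3 counts is the largest share in the smallest control library, and 3 samples a group give wide errors for entries with few counts. Across RLE factors, TMM without rRNA entries and DESeq2, the numbers called stayed within 1.5 times and no called 5S entry that is named changed direction. With library size only, which moves the median of all tested entries from -0.06 to -0.76, 0 members were called higher. Of all 947 entries 521 were then called lower and 120 higher. The medians were -3.16 (members) and -3.19 (pseudogenes), RNA5S9 was -2.31 and the family -4.02. With TMM on microRNAs only the pseudogene median was -2.70. Without the filter 49 of 72 members were called lower and 2 higher, and both medians were -1.81. Of all 3084 entries in that fit, which include any with at least 1 count, 379 were called lower and 382 higher. With at least 10 counts in every sample 18 members remained, 13 called lower and 0 higher, with both medians at -1.99 and RNA5S9 not among them. Of all 654 entries in that fit, 193 were called lower and 193 higher. Of the 17 members past the filter in both groups 11 were called lower and 1 higher. Among all 730 such entries 25.2% were called lower and 31.6% higher. The family was -2.38 without RNA5SP74, -1.99 for RNA5S9 and 5S_rRNA alone, and -2.82 without RNA5SP74 and RUNX1 replicate 3, and it was not recomputed under the filters. The difference in family share was -1.04 percentage points, -1.09 with the most abundant microRNA left out and -15.1 with rRNA entries as the total. The log2 ratio of pseudogenes to the gene was -0.64 without RNA5SP74. RNA5SP283 changed sign under RLE factors (0.0259), no filter (0.0272) and DESeq2 (0.00214). The cause of these shifts was not tested.

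Leaving out 1 sample gave 33 to 43 members called lower and 1 to 2 higher, of 45 to 48 tested. In these fits 261 to 303 of the 969 to 1020 tested small RNAs were called lower and 253 to 309 higher. The medians were -2.57 to -2.19 (members) and -2.65 to -2.19 (pseudogenes), and RNA5S9 lay at -1.91 to -1.35. The family lay at -3.73 to -3.21, the difference in its share at -1.06 to -1.01 percentage points and the ratio at -1.87 to -1.48. RNA5SP518 ran from -6.13 to -3.37, RNA5SP491 from -4.20 to -2.85, RNA5SP283 from -0.95 to 0.51, RNA5SP500 from -0.61 to 0.10 and RNA5SP122 from -0.91 to 0.15. With the replicate number as a block 36 members were called lower and 1 higher, and RNA5SP248 became called (-0.72). Of all 947 entries 287 were called lower and 259 higher in that fit. Samples of the same number did not deviate together (r of -0.03, -0.09 and 0.02), so the numbers are not taken as a pairing.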
